A study of Homo sapiens with 4 samples.

Results

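Very long peaks were defined as peak calls of 4000 bp or more, whatever their score, in the lists of genomic stretches whose RNA was recovered with the RNA-binding protein HuR. The list of WS1 cells given 5 Gy of X-rays held 1083 such peaks among 36216, and the list of WS1 cells given 0 Gy held 1019 among 47930. Together they made up 2102 of 84146 peaks. The peaks were chosen by their length in these same lists, so their lengths and numbers are given as descriptions without a test.

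WS1 is a line of human skin fibroblasts. RNA immunoprecipitation followed by sequencing (RIP-seq) gave 4 libraries, with 1 per group: RNA recovered with HuR at 5 Gy, RNA recovered with control immunoglobulin (IgG) at 5 Gy, RNA recovered with HuR at 0 Gy and RNA recovered with IgG at 0 Gy. Each list sets the HuR library of a dose over the IgG library of the same dose. The time between irradiation and harvest is not given in the sources used here. With 1 library per group no difference between the doses has a replicate check, no p-value was computed, and all intervals below cover counting error alone and treat peaks as independent. The read depth behind each peak is unknown, since the lists hold no read counts. The cultures were profiled in bulk, so fewer cells with an RNA, less of that RNA per cell and less HuR on it cannot be told apart.

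HuR, the product of ELAVL1, is an RNA-binding protein that favours U-rich and AU-rich stretches in introns and 3′ untranslated regions. It is known for stabilising mRNAs and for moving from the nucleus to the cytoplasm under stress, DNA damage included. A peak here is a stretch that the authors called from the HuR library over the IgG library of the same dose. How signal along a stretch was joined into a single call is not given in the sources used here. In spliced mRNA most internal exons are short and the last exon is often the longest, whereas introns and unspliced noncoding RNAs can run on for many kilobases, so RNA that is continuous on the genome can give calls of several kilobases. Exons parted by short introns, or neighbouring transcripts, could also be joined into a single call. Positions are on hg19, counted from 1. Genes, exon or intron classes, fibroblast markers and sequences under the peaks were not analysed here, because no hg19 annotation or genome was used, and loci are therefore named by position.

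The number of long peaks was close at both doses, although the 5 Gy list as a whole was the smaller one. The 1083 long peaks at 5 Gy came to 106% of the 1019 at 0 Gy (95% interval 97.6 to 116). They made up 2.99% of the 5 Gy list (95% interval 2.82 to 3.17) and 2.13% of the 0 Gy list (95% interval 2.0 to 2.26). Their share of all bases under peaks was 17.4% at 5 Gy (6.06 of 34.7 Mb) and 14.7% at 0 Gy (5.58 of 37.9 Mb). The order of the lists by number of long peaks depended on the settings. From 5000 bp the 5 Gy list held 114% of the 0 Gy number (95% interval 101 to 128), and from 3000 bp it held 104% (95% interval 98.2 to 111). At scores of at least 1000 the 5 Gy list held 98.3% of the 0 Gy number, and after joining of peaks within 1000 bp it held 89.0% (95% interval 84.1 to 94.2).

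The lower number of peaks at 5 Gy lay among short peaks. Below 250 bp the 5 Gy list held 2689 peaks against 4551 at 0 Gy (59.1%), and from 250 to under 500 bp it held 12820 against 22424 (57.2%). From 500 to under 1000 bp the numbers were 11639 at 5 Gy and 11982 at 0 Gy (97.1%). In the classes from 1000 bp up to the 4000 bp threshold the 5 Gy number lay between 98.0% and 106% of the 0 Gy number. Among the long peaks there were 487 at 5 Gy and 494 at 0 Gy under 5000 bp, 216 and 187 from 6000 to under 8000 bp, and 26 and 16 from 10000 bp. The 95% interval of each class from 4000 bp upwards included 100%.

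**Figure D1:**
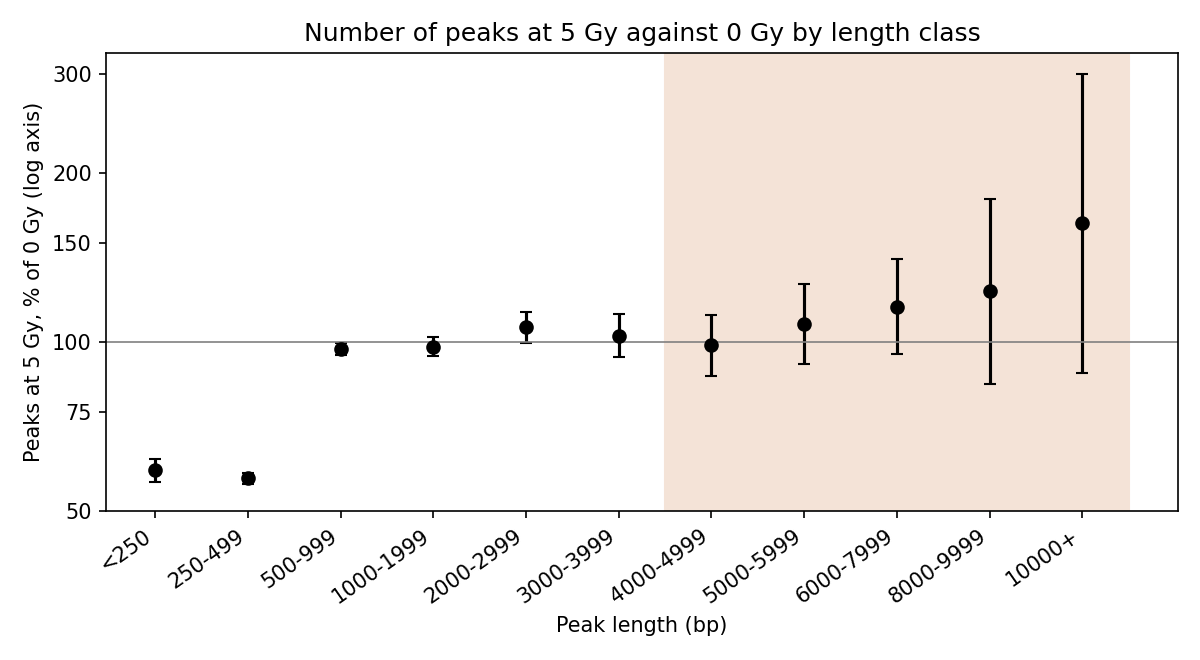
Number of peaks at 5 Gy as a percentage of the number at 0 Gy (vertical log axis) by class of peak length in bp (horizontal axis), with 95% intervals of counting error; the shaded classes hold the long peaks. Classes under 500 bp lie below 60%, and the intervals of all classes from 4000 bp upwards include 100%.

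Among the long peaks the 5 Gy members had a median length of 5146 bp (quartiles 4473 and 6150 bp), and the 0 Gy members one of 5043 bp (quartiles 4434 and 5972 bp). The most extended call of each list covered the same stretch of chromosome 19, with 18027 bp at 5 Gy (chr19:57801966-57819992) and 17257 bp at 0 Gy (chr19:57801817-57819073). The 0 Gy call stopped 59 bp before a further 0 Gy peak of 846 bp that lay under the same 5 Gy call. The next in length at 5 Gy was chr12:76462483-76478768 (16286 bp). It lay over 3 calls at 0 Gy, each of which was itself long (the shortest 4412 bp), with gaps of 84 and 199 bp between them. The next in length at 0 Gy was chr3:170138950-170155892 (16943 bp), which 5 Gy divided into calls of 6257 and 9066 bp with a gap of 53 bp. At these 3 loci most of the stretch was called at both doses, and the calls were broken at different places.

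Other loci among the 10 longest of either list were divided at 0 Gy, divided at 5 Gy or held single calls at both doses, and 1 at 0 Gy had no match. On chromosome 5, the 0 Gy call chr5:14157669-14170511 (12843 bp) lay over 4 calls at 5 Gy, the longest 7539 bp, with gaps of 1 to 45 bp. On chromosome 15, a 5 Gy call of 15614 bp (chr15:60674495-60690108) lay over 0 Gy calls of 4526 and 11355 bp that were 8 bp apart. Elsewhere on chromosome 5, a 5 Gy call of 12237 bp (chr5:170819983-170832219) lay over 3 calls at 0 Gy, the longest 9102 bp, with gaps of 52 and 116 bp. On chromosome 12, the gap was wider: the 5 Gy call chr12:69231677-69244632 (12956 bp) lay over 0 Gy calls of 7518 and 2961 bp that were 1933 bp apart. On chromosome 10, the list of each dose held a single call with nearly the same borders, 12615 bp at 5 Gy (chr10:96361062-96373676) and 12764 bp at 0 Gy (chr10:96361055-96373818). On chromosome 21, the single calls measured 11894 bp at 5 Gy (chr21:35466894-35478787) and 12179 bp at 0 Gy (chr21:35466504-35478682). On chromosome 14, they measured 13792 bp at 5 Gy (chr14:21723839-21737630) and 14385 bp at 0 Gy (chr14:21723274-21737658).

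The threshold itself cut through loci with similar calls at both doses. The shortest members at 5 Gy measured 4000, 4000 and 4002 bp, and the longest peaks left out measured 3999, 3998 and 3997 bp. At 0 Gy the shortest members measured 4000, 4001 and 4004 bp, and the longest peaks left out 3995, 3993 and 3993 bp. For example, the 5 Gy peak chr5:115163757-115167758 (4002 bp) was a member, and its only partner at 0 Gy, of 3705 bp, was not. At chr8:118936483-118940599 the 5 Gy peak was a member with 4117 bp, and its partner at 0 Gy was left out with 3995 bp.

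Nearly all long peaks overlapped a peak of the other list by at least 1 bp. Without such a match were 8 of 1083 long peaks at 5 Gy (0.739%, 95% interval 0.375 to 1.45), against 27% of all 5 Gy peaks. At 0 Gy 38 of 1019 were without a match (3.73%, 95% interval 2.73 to 5.08), against 41.9% of all 0 Gy peaks. A longer stretch has more bases to be met by chance, and the share with a match was also high just below the threshold: from 3000 to under 4000 bp it was 97.6% at 5 Gy and 96.4% at 0 Gy. From 1000 to under 2000 bp it was 92.3% at 5 Gy and 88.5% at 0 Gy. The order of the doses turned when 50% of each peak had to overlap, with a match for 87.9% of long peaks at 5 Gy (95% interval 85.8 to 89.7) and 89.7% at 0 Gy (95% interval 87.7 to 91.4).

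The longest partner was itself a long peak for 793 long peaks at 5 Gy (73.2%, 95% interval 70.5 to 75.8) and for 797 at 0 Gy (78.2%, 95% interval 75.6 to 80.6). Several shorter peaks stood in its place for 216 long peaks at 5 Gy (19.9%) and 133 at 0 Gy (13.1%). A single shorter peak did so for 66 at 5 Gy (6.09%) and 51 at 0 Gy (5.00%). These single partners had a median of 85.3% of the length of the 5 Gy member and 86.0% of the length of the 0 Gy member, so many lay not far under the threshold. At least 90% of the bases of the long peak were covered by the other list for 885 members at 5 Gy (81.7%) and 873 at 0 Gy (85.7%). Less than 50% was covered for 24 members at 5 Gy and 49 at 0 Gy, unmatched ones included.

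**Figure D2:**
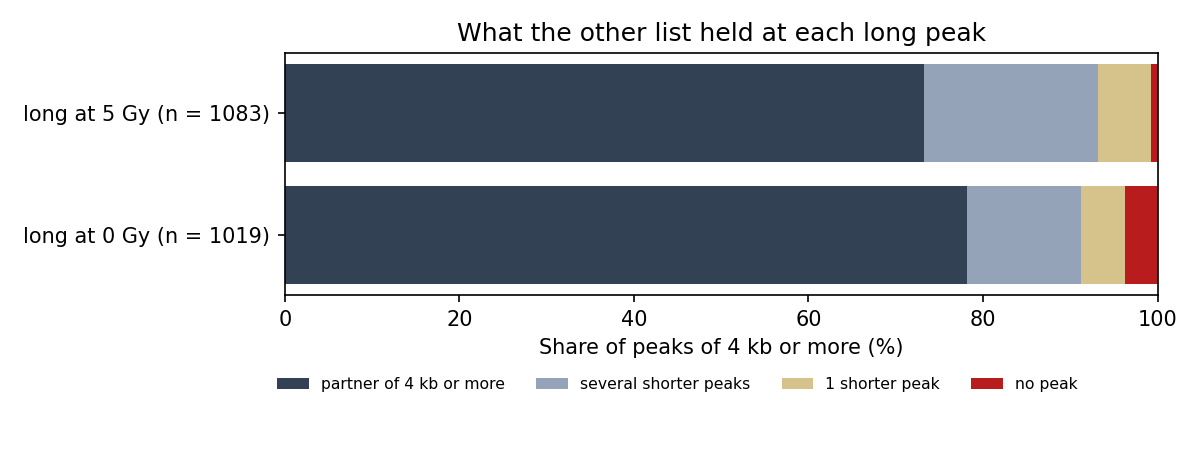
Share of the long peaks of each list (bars, 1083 at 5 Gy above 1019 at 0 Gy) by what the other list held at the same place. A partner of 4000 bp or more was present for 73.2% of long peaks at 5 Gy and 78.2% at 0 Gy.

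A larger share of long calls at 5 Gy than at 0 Gy lay over several calls of the other list, and the 0 Gy list holds more peaks that can lie under a long one. At 5 Gy 334 long peaks (30.8%, 95% interval 28.2 to 33.7) lay over at least 2 peaks at 0 Gy, against 9.28% of all 5 Gy peaks. At 0 Gy 200 long peaks (19.6%, 95% interval 17.3 to 22.2) lay over at least 2 peaks at 5 Gy, against 4.79% of all 0 Gy peaks. At least 4 peaks lay under 55 long peaks at 5 Gy and 16 at 0 Gy, and this count was not made over all peaks. In the class from 3000 to under 4000 bp the shares over at least 2 peaks were 24.1% at 5 Gy and 18.4% at 0 Gy, so peaks just under the threshold had shares not far below those of the members. The breaks were narrow at both doses. Between the 0 Gy peaks under a long 5 Gy peak there were 559 gaps with a median of 77 bp, of which 510 (91.2%) were at most 500 bp wide. Between the 5 Gy peaks under a long 0 Gy peak there were 284 gaps with a median of 70.5 bp, of which 259 (91.2%) were at most 500 bp wide. Gaps under shorter peaks were not measured, so narrow breaks are not read as particular to long peaks.

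The loci with most calls under a long peak show how such stretches were divided. At chr9:117546915-117553204 the 5 Gy list held 1 call of 6290 bp with a score of 1657.49, and the 0 Gy list held 7 calls of 339 to 925 bp, none of which scored above 225.79. The 0 Gy calls covered 65.6% of the 5 Gy call. At chr12:120696330-120703616 the 5 Gy call of 7287 bp scored 1730.96, and the 7 calls at 0 Gy covered 73.2% of it with scores up to 395.27. At chr7:5547922-5553558 the 5 Gy call of 5637 bp scored 1734.51, and the 6 calls at 0 Gy covered 56.6% of it with scores up to 284.93. At these 3 loci the unbroken call at 5 Gy thus stood over short calls of low score. This did not hold at chr1:78437549-78448000, where the 5 Gy call of 10452 bp scored 1455.61. The 6 calls at 0 Gy covered 97.0% of it, with scores up to 3100.

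The opposite arrangement also occurred. At chr11:66420859-66426285 the 0 Gy list held 1 call of 5427 bp with a score of 2070.55, and the 6 calls at 5 Gy covered 61.1% of it with scores up to 203.19. At chr9:130989340-130995889 the 0 Gy call of 6550 bp scored 2995.54, and the 5 calls at 5 Gy covered 58.7% of it with scores up to 311.74. At chr5:14185269-14194724 the 0 Gy call of 9456 bp was tied at the score of 3100, and the 7 calls at 5 Gy covered 89.8% of it, with scores from 75.42 to 1994.85 and gaps of 28 to 441 bp. At chr1:153608018-153613685 the 0 Gy call of 5668 bp scored 758.39, and the 5 calls at 5 Gy covered 86.6% of it with scores up to 416.51. At chr8:119096401-119105616 the 0 Gy call of 9216 bp was also tied at 3100. The 5 calls at 5 Gy covered 93.9% of it, with scores up to 3100.34. Elsewhere on chromosome 8, a 5 Gy call of 12887 bp (chr8:128806023-128818909, score 3100) lay over 8 calls at 0 Gy of 277 to 3162 bp. They covered 93.5% of it and were separated by 4 to 291 bp. Here the broken list still covered most of the stretch.

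**Figure D3:**
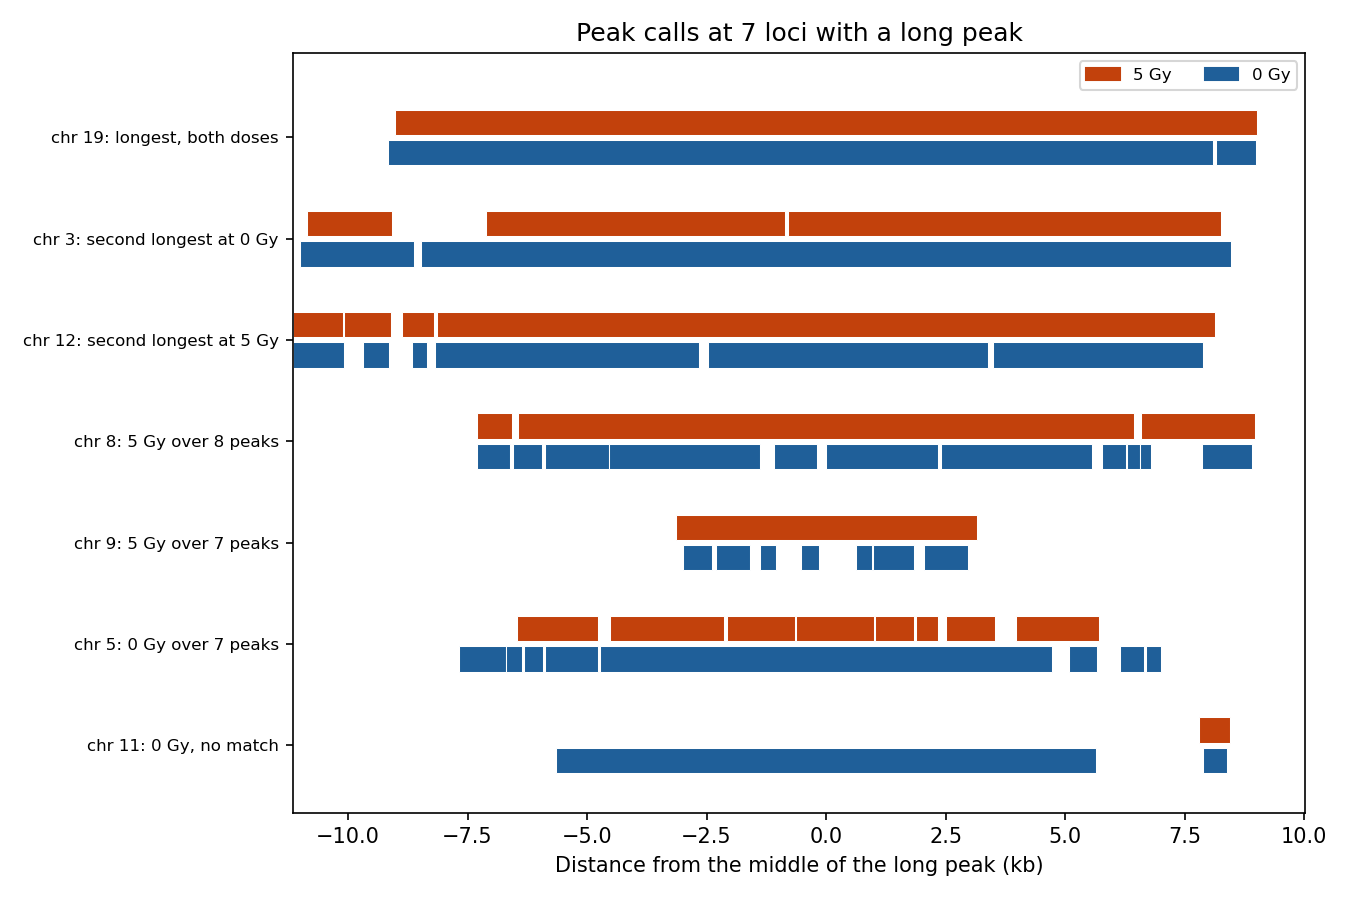
Peak calls at 7 loci, drawn as bars against the distance in kb from the middle of the long peak and shown to 3000 bp beyond it; for each locus the 5 Gy calls lie above the 0 Gy calls. The long peak of one dose lies over 2 to 8 calls of the other dose at the first 6 loci, and the 11305 bp peak at 0 Gy on chromosome 11 has no 5 Gy call over it.

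Borders could be compared where exactly 1 peak of each list lay only against the other. There were 735 such one-to-one pairs with at least 1 long member: 621 were long at both doses, 65 at 5 Gy alone and 49 at 0 Gy alone. Shifts are given as extension at 5 Gy relative to 0 Gy, at the border with the lower and with the higher coordinate, since the lists carry no strand. In the 621 pairs long at both doses the median size of the shift was 48 bp at the lower border (95% interval 41 to 59) and 51 bp at the upper border (95% interval 45 to 61). Over all 19750 one-to-one pairs, whose median length was 571 bp, the median sizes were 56 bp at the lower and 65 bp at the upper border. The summed shift of both borders was a median of 2.73% of the length in pairs long at both doses and 25.6% over all pairs. In pairs with a mean length from 3000 to under 4000 bp it was 4.76%. The figure over all pairs pools unlike classes. In pairs with a mean length under 500 bp the median sizes were 34 bp at the lower and 42 bp at the upper border, from 500 to under 1000 bp they were 89 and 95 bp, and from 1000 to under 2000 bp they were 67 and 71 bp.

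The size of the shift changed little with length from 2000 bp upwards. In pairs with a mean length from 2000 to under 3000 bp the median size was 54 bp at the lower and 59 bp at the upper border, and from 6000 bp it was 59.5 bp at the lower and 55.5 bp at the upper border. Of the 1242 borders of pairs long at both doses, 440 (35.4%) lay within 25 bp of each other and 331 (26.7%) differed by 101 to 250 bp. A shift of 251 to 500 bp was found at 54 borders (4.35%) and a larger one at 41 (3.30%). Over all pairs the share of borders with a shift of 101 to 250 bp was 27.1% and that of 251 to 500 bp was 7.93%. The distribution thus had a sharp centre, a shoulder and a steep fall beyond about 250 bp in both sets.

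**Figure D4:**
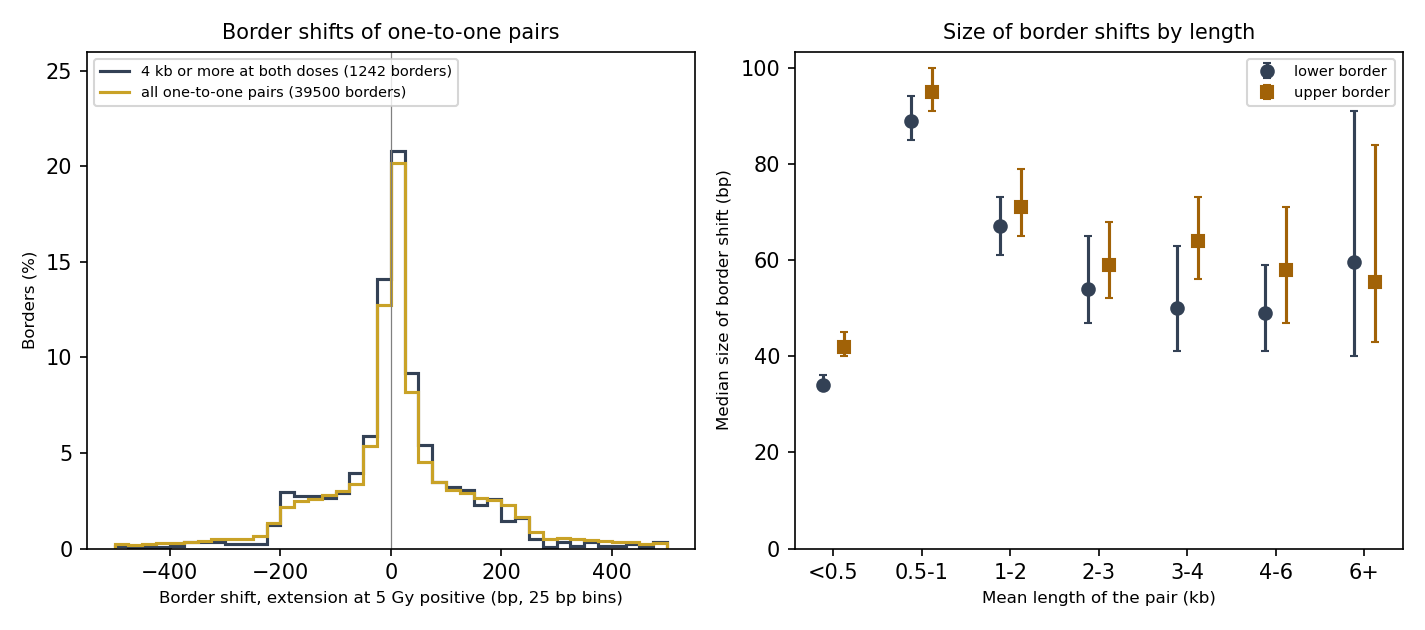
Left, share of borders (%) by border shift in bp, in bins of 25 bp, for pairs of 4000 bp or more at both doses and for all one-to-one pairs, with extension at 5 Gy counted as positive; the outlines have a similar shape and fall off beyond about 250 bp. Right, median size of the shift in bp with its 95% interval by mean length of the pair in kb, for the lower and the upper border; in pairs with a mean length from 2000 bp the medians lie between 49 and 64 bp.

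Extension at 5 Gy was slightly more frequent than retraction. Both borders lay further out at 5 Gy in 211 of the 621 pairs long at both doses and further in in 127. Over all 19750 one-to-one pairs these numbers were 6203 and 3261, so the excess of extension was also found in the lists as a whole. The 5 Gy peak was the longer one in 341 of the 621 pairs (54.9%, 95% interval 51.0 to 58.8), against 58.3% of all one-to-one pairs. The median ratio of lengths, 5 Gy over 0 Gy, was 1.003 (95% interval 1.001 to 1.005) in pairs long at both doses and 1.032 over all pairs. Among the 735 pairs with at least 1 long member, the 5 Gy peak was at least 1.5 times as long in 15 (2.04%), against 15.1% of all one-to-one pairs. The 0 Gy peak was at least 1.5 times as long in 8 (1.09%), against 9.27% of all pairs. All of these were long at a single dose, 15 of the 65 pairs long at 5 Gy alone and 8 of the 49 long at 0 Gy alone, and the demand that both peaks reach 4000 bp leaves little room for such a ratio in the other 621. Values just under the threshold were close to those of the long pairs. In pairs with a mean length from 3000 to under 4000 bp, the 5 Gy peak was longer in 55.5% and the median ratio was 1.005. There the 5 Gy peak was at least 1.5 times as long in 1.70%, and the 0 Gy peak in 0.927%.

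Large shifts were often at a single border. A border moved by 500 bp or more in 98 of the 735 pairs with at least 1 long member (13.3%). It did so in 37 of the 621 long at both doses (5.96%) and in 1519 of all 19750 pairs (7.69%). Of the 98, 34 were long at 5 Gy alone and 27 at 0 Gy alone, a choice that favours unlike lengths. Among pairs with a mean length of at least 4000 bp the number was 56 of 665 (8.42%). The figure over all pairs pools unlike classes of mean length. It was 0.451% under 500 bp, 17.51% from 1000 to under 2000 bp and 11.3% from 2000 to under 3000 bp. In 53 of the 98 the other border stayed within 100 bp, and in 10 both borders moved by 500 bp or more. Over all pairs these numbers were 670 and 87 of the 1519. The farthest extensions with the other border in place were found at chr3:179051017-179055707, where the 5 Gy peak of 4691 bp reached 3891 bp below the 0 Gy peak of 761 bp and 39 bp above it, and at chr3:160117285-160122403, where it reached 3506 bp below a 0 Gy peak of 1549 bp and 64 bp above it. At chr20:3869762-3874248 and chrX:70275803-70281183 the 5 Gy peak began 1061 and 1127 bp further up than its partner at 0 Gy and ended 4426 and 4338 bp beyond it, so the calls shared only 61 and 1043 bp.

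Far retractions were also mostly one-sided. The 5 Gy peak chr10:33196256-33197751 (1496 bp, tied at a score of 3100) lay at the upper end of a 0 Gy peak of 5970 bp (score 995.27) that began 4572 bp below it. The 5 Gy peak chr6:150139799-150142125 (2327 bp, score 2333.06) lay at the lower end of a 0 Gy peak of 5460 bp (score 589.14), whose upper border was 3233 bp further out. The 5 Gy peak chr17:42267631-42269091 (1461 bp, score 1059.36) ended 2624 bp before the upper border of its partner at 0 Gy, a peak of 4005 bp (score 185.61). The 5 Gy peak chr20:5977637-5979772 (2136 bp, score 114.53) began 2792 bp above the lower border of a 0 Gy peak of 4803 bp (score 144.25), and the 5 Gy peak chr18:213446-214964 (1519 bp, score 163.18) began 2538 bp above that of a 0 Gy peak of 4219 bp (score 83.52). The shorter call at 5 Gy carried the higher score at 4 of these 5 loci and the lower one on chromosome 20.

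The closest agreement of borders was to single bases. At chr7:129770356-129775567 the 5 Gy peak of 5212 bp began at the same base as the 0 Gy peak and ended 1 bp before it. At chr2:37326354-37334563 the 5 Gy peak of 8210 bp differed from the 0 Gy peak by 1 bp at the lower and 2 bp at the upper border. At chr17:73201677-73208076 the 5 Gy peak of 6400 bp differed by 1 and 3 bp, and at chr2:174085873-174091888 the 5 Gy peak of 6016 bp differed by 4 bp at the lower border alone. Close borders could go with unlike scores: these were 675.66 at 5 Gy and 2643.79 at 0 Gy at the first of the chromosome 2 loci, and 814.69 at 5 Gy and 1654.26 at 0 Gy at the other.

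Peaks that overlap across the lists were also chained into loci, and 1298 loci held at least 1 long peak. A long peak was present at both doses in 788 loci (60.7%), at 5 Gy alone in 289 (22.3%) and at 0 Gy alone in 221 (17.0%). Over all 1298 loci the calls summed to 7.12 Mb at 5 Gy and 7.13 Mb at 0 Gy (99.9%), in 1664 calls at 5 Gy and 1958 at 0 Gy. A nearly equal summed length was thus called in fewer pieces at 5 Gy. In the 788 loci long at both doses the median ratio of summed length, 5 Gy over 0 Gy, was 1.004 (quartiles 0.985 and 1.03), a range that the demand for a long peak at both doses narrows. In loci long at 5 Gy alone the median ratio was 1.11 over the 281 with calls at both doses, and in loci long at 0 Gy alone it was 0.917 over 183. These last medians lie on the side that the choice of loci fixes. A ratio of at least 1.5 was found in 39 loci, all long at 5 Gy alone, and one of at most 1 in 1.5 in 20, all long at 0 Gy alone, which the same choice favours.

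The scores are the authors' own. Many are tied at 3100, few exceed it, and scores of at least 3100 are called the top score here. A score of at least 3100 was given to 457 of the long peaks at 5 Gy (42.2%, 95% interval 39.3 to 45.2), against 5.72% of all 5 Gy peaks. At 0 Gy it was given to 519 long peaks (50.9%, 95% interval 47.9 to 54.0), against 5.35% of all 0 Gy peaks. The share was also high just below the threshold, and from 3000 to under 4000 bp it was 32.4% at 5 Gy and 36.6% at 0 Gy. In the 621 pairs long at both doses, 303 had the top score at both, 26 at 5 Gy alone and 77 at 0 Gy alone. Over all 19750 one-to-one pairs these numbers were 1671, 136 and 535, so the order of the doses was the same there. Of the 215 pairs below the top score at both doses, 144 (67.0%) scored lower at 5 Gy, as did 63.9% of such pairs among all one-to-one pairs. The median ratio of scores, 5 Gy over 0 Gy, was 0.760 in these 215 long pairs and 0.800 over all such pairs. The depth of the libraries is unknown, and its part in the lower scores at 5 Gy was not tested.

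**Figure D5:**
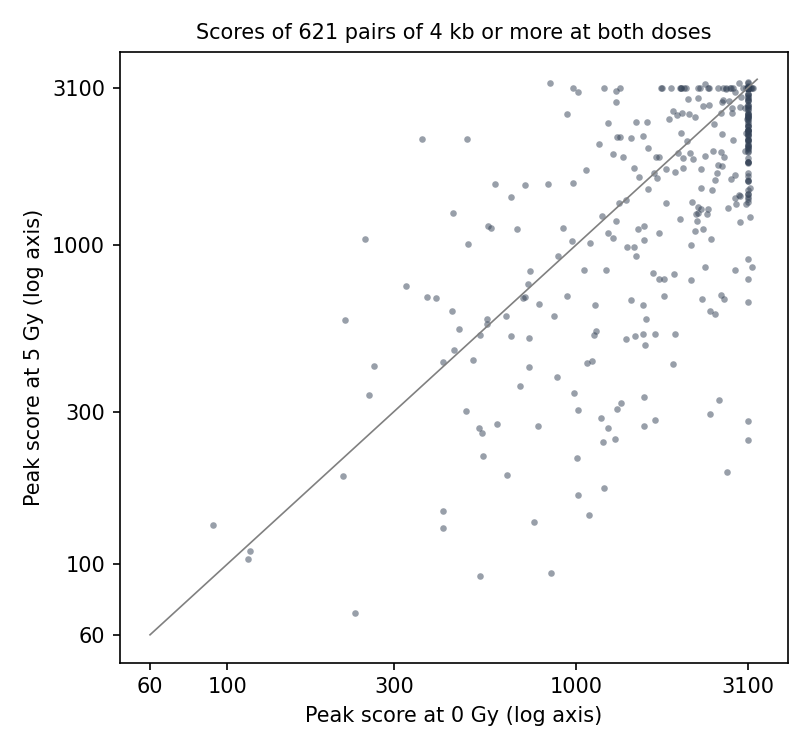
Peak score at 5 Gy (vertical log axis) against peak score at 0 Gy (horizontal log axis) for the 621 one-to-one pairs of 4000 bp or more at both doses, with the line of equal scores. Scores of 303 pairs reach at least 3100 at both doses, and of the 215 pairs below that at both doses 144 lie under the line.

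Single scores of long peaks could differ widely between the doses. Among the 215 pairs below the top score at both doses, the score at 5 Gy was at most 1 in 3 of that at 0 Gy in 33 pairs and at least 3 times as high in 3. Over all 17408 one-to-one pairs below the top score at both doses these numbers were 1802 and 486, so the lower scores at 5 Gy also outnumbered the higher ones in the lists as a whole. Where a long 5 Gy peak lay over at least 2 peaks at 0 Gy and not both sides had the top score, the long peak scored above the best of them in 138 cases and below in 135. Where a long 0 Gy peak lay over at least 2 peaks at 5 Gy, it scored above the best of them in 127 cases and below in 39. A longer call thus did not always carry the higher score, and at 5 Gy it did so in about as many cases as not. The same counts over all peaks lying over at least 2 peaks of the other list were not made. Whether this contrast of the doses is particular to long peaks was therefore not tested.

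A small group of long peaks had low scores. Below 150 there were 42 long peaks at 5 Gy (3.88% of the long peaks) and 14 at 0 Gy (1.37%). Of all peaks, 18647 of 36216 at 5 Gy and 25659 of 47930 at 0 Gy scored that low. Of the 42 at 5 Gy, 38 (90.5%) overlapped a 0 Gy peak, against 53.8% of all 5 Gy peaks in that range of scores, and 12 overlapped a 0 Gy peak with a score of at least 1000. Of the 14 at 0 Gy, 8 (57.1%) overlapped a 5 Gy peak, against 35% of all 0 Gy peaks in that range. None of these 14 overlapped a 5 Gy peak with a score of at least 1000. Overlaps with peaks scoring at least 1000 were not counted over all peaks scoring below 150. With only 8 matched long peaks at 0 Gy, these counts are not read as a difference between the doses. The lowest score of a long peak at 5 Gy, 62.87, belonged to chr19:13945067-13953739 (8673 bp). It lay over 3 calls at 0 Gy, which covered 93.8% of it and scored up to 2476.30. The next, chr7:5537700-5544144 (6445 bp, score 63.86), lay over 4 calls at 0 Gy that scored up to 1875.36. The lowest score of a long peak at 0 Gy, 62.72, belonged to chr4:56261874-56265877 (4004 bp), which had no match at 5 Gy. The next, chr10:126673146-126678259 (5114 bp, score 65.72), lay over a 5 Gy call of 2616 bp with a score of 910.57.

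The 8 long peaks at 5 Gy without a match at 0 Gy measured from 4104 to 6117 bp and had a median score of 140. The longest was chr20:3849998-3856114 (6117 bp, score 289.69), followed by chr3:197676916-197682747 (5832 bp, score 81.92) and chr6:151669828-151675171 (5344 bp, score 76.46). Of the 8, 4 scored under 150 and 1 at least 1000. The 38 long peaks at 0 Gy without a match at 5 Gy had a median length of 4830 bp and a median score of 483. Of the 38, 6 scored under 150 and 11 at least 1000. The unmatched peaks at 0 Gy thus included more calls of high score, and more calls in all. The same order was found over all peaks, where 20064 at 0 Gy and 9785 at 5 Gy had no match. Of the 11 at 0 Gy, 3 scored at least 3100, as did the 1 at 5 Gy. Of all peaks scoring from 1000 to under 3100, 3278 of 3300 at 0 Gy and 2657 of 2660 at 5 Gy had a match. Among all peaks scoring at least 3100, 2560 of 2566 at 0 Gy and 2069 of 2070 at 5 Gy had one.

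The most extended unmatched peak was chr11:66384082-66395386 at 0 Gy, with 11305 bp. It scored 145.56, and 2148 bp separated it from the closest call at 5 Gy. It was followed by the 0 Gy peaks chr5:14369419-14378314 (8896 bp, tied at 3100), chr1:67872488-67880496 (8009 bp, score 118.89), chr1:149909493-149917452 (7960 bp, score 1634.18) and chr20:3164245-3171663 (7419 bp, score 683.95). Some of these lay close to called sequence at the other dose. The nearest 5 Gy peak was 111 bp from the chromosome 20 peak and 647 bp from the first of the chromosome 1 peaks. Others stood farther off, with 11.6 kb for the other chromosome 1 peak, 49.2 kb for chr6:36562108-36569300 (7193 bp, tied at 3100) and 34.8 kb for chr7:94292500-94299027 (6528 bp, score 489.47). Of the 38, 6 lay within 1000 bp of a 5 Gy peak and 15 more than 10000 bp from one. Of the 8 at 5 Gy, none lay within 1000 bp of a 0 Gy peak and 2 lay more than 10000 bp from one. These distances were not set against those of all unmatched peaks. The 0 Gy peaks were also measured against the list with fewer peaks, so the numbers are not read as a trait of long peaks.

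No autosome stood apart in its share of long peaks, nor did chromosome X. The share of long peaks among the peaks of a chromosome ranged at 5 Gy from 2.16% on chromosome 6 (31 of 1437) to 3.42% on chromosome 5 (75 of 2192). At 0 Gy it ranged from 1.18% on chromosome 13 (10 of 846) to 2.51% on chromosome 12 (77 of 3064). The 95% interval of the share of each of these 23 chromosomes included the share in the whole list at both doses. Chromosome 1 held the largest number of long peaks, with 124 at 5 Gy and 122 at 0 Gy. Chromosome 3 came next, with 90 at 5 Gy and 80 at 0 Gy. The number at 5 Gy was higher on 14 of the 23 chromosomes, lower on 4 and equal on 5.

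Most long peaks had no other long peak within 10 kb. Neighbouring long peaks were a median of 1106090 bp apart at 5 Gy and 1138402 bp apart at 0 Gy. The nearest peak of any length in the same list was a median of 2918 bp away at 5 Gy and 1915 bp away at 0 Gy, which is farther than over all peaks, with 1217 bp at 5 Gy and 870 bp at 0 Gy. Another peak of the same list lay within 1000 bp of 367 long peaks at 5 Gy (33.9%, against 46.6% of all 5 Gy peaks) and of 397 at 0 Gy (39.0%, against 52.7% of all 0 Gy peaks).

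Runs of long peaks within 10 kb of each other were few. They held 89 long peaks in 43 runs at 5 Gy (8.22% of long peaks) and 76 in 34 runs at 0 Gy (7.46%). Runs of at least 3 numbered 3 at 5 Gy and 6 at 0 Gy. The run with most members lay on chromosome 5 at 0 Gy (chr5:14143346-14194724), where 13 peaks included 5 long ones with a summed length of 40715 bp. In the same stretch the 5 Gy list held 17 peaks, 3 of them long, and all 17 summed to 41538 bp. At 5 Gy the run with the greatest summed length was chr12:76436666-76478768, where 3 long peaks summed to 28398 bp. There the 0 Gy list held 16 peaks, 4 of them long, and all 16 summed to 33400 bp. On chromosome 7, 3 long peaks were found at both doses, at chr7:138706040-138732651 for 5 Gy. On chromosome 10, the 0 Gy run chr10:96327044-96348350 spanned 21307 bp and held 6 peaks, 3 of them long with a summed length of 16633 bp. The 5 Gy list held 10 peaks there, none of them long, and these 10 summed to 20236 bp. One of the 5 members of the chromosome 5 run, chr5:14143346-14150218 (6873 bp, score 1511.43), had no match at 5 Gy, where the nearest peak was 200 bp from it.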

How the data were processed

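Per the submitters' processing notes, the tools named are cutadapt 1.9.1 and Bowtie2 2.2.4, and the build is hg19. Peak names in the deposited lists begin with MACS, a peak caller whose version is not given in the sources used here. The deposited score of each peak is the authors' own. Its lowest value is 60.01 at 5 Gy and 60 at 0 Gy; how it was computed is not given in the sources used here. Scores of 2000 peaks at 5 Gy and 2481 at 0 Gy are tied at 3100, and higher scores were pooled with the tie. No read counts are given.

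Overlap of at least 1 bp, pairs and loci were computed in Python 3.11.15 with numpy 2.4.6, pandas 2.3.3, scipy 1.17.1 and networkx 3.6.1. Intervals are Wilson 95% intervals for shares, the odds of the Wilson interval of n(5 Gy) in the sum of both numbers for one number as a percentage of the other, and order statistics for medians. Named loci were the extremes of each list in length, border shift, calls overlapped, score, runs, and peaks without a match. The members and rules were chosen with earlier results of these data known. The overlap code was tested on simulated data.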

Additional observations from a re-analysis of the deposited data

How the results depend on the processing

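Of 61 values recomputed for 19 results, 27 moved by less than the counting error (numbers of peaks by less than 1.5 times) and 34 did not. The order of the doses turned for the number of long peaks (lower at 5 Gy with peaks within 1000 bp joined and at scores of at least 1000) and for the share with a match (lower at 5 Gy with 50% of each peak overlapping). It also turned, by little, for the summed length over loci with a long peak. There 5 Gy came to 99.9% of 0 Gy as reported, 100.2% from 3000 bp and 101.1% from 5000 bp. Numbers of long peaks at 5 Gy and 0 Gy were 2079 and 1991 from 3000 bp, 596 and 525 from 5000 bp, and 2244 and 2522 with peaks within 1000 bp joined, where the 5 Gy number was 89.0% of that at 0 Gy. Shares with a match at 5 Gy and 0 Gy were 87.9% and 89.7% with 50% of each peak overlapping, 91.4% and 84.0% at scores of at least 1000, and 98.5% at 5 Gy from 3000 bp. Shares with a long partner were 77.3% (5 Gy) and 81.5% (0 Gy) from 3000 bp, 80.8% (0 Gy) from 5000 bp and 76.1% (5 Gy) with peaks within 100 bp joined. Joining also gave 25.5% of 5 Gy long peaks over several peaks. Top-score shares were 37.5% (5 Gy) and 43.9% (0 Gy) from 3000 bp and 56.8% (0 Gy) from 5000 bp. Shares in runs at 5 Gy and 0 Gy were 5.91% and 5.5% within 5 kb and 11.4% and 10.3% within 20 kb. Median shifts (lower and upper border) were 94 and 103 bp with 50% of each peak overlapping, and 51 bp at the upper border with both peaks long; the first rule admits pairs that have further, smaller overlaps. Pairs past the fold with the 5 Gy or the 0 Gy peak longer were 5.44% and 2.86% at a fold of 1.2, and 0% and 0% (0 of 621) with both peaks long. With a mean length of at least 4000 bp they were 0.451% and 0%. At a fold of 2 the 5 Gy peak was longer in 1.09% of the 735 pairs with at least 1 long member. The alternatives by mean length for borders and by length for summed loci were added after seeing the data. The planned locus classes need an hg19 annotation and were not run. No paired analysis was possible because both doses had single libraries, which with the unknown depth limits every comparison.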
